A study of Mus musculus with 10 samples.

Results

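The Ugt, Sult and Gst enzymes attach a charged group to drugs, plant compounds, hormones, bile acids and reactive lipids, so that these can leave the cell. They were followed in mouse ileum on 10 one-colour Agilent arrays, as all probes whose gene name in the array annotation begins with Ugt1 or Ugt2, with Sult and a number, with Gst and one of the letters a, k, m, o, p or t and a number, or with Mgst and a number. This gave 56 of 41174 probes, which stand for 43 genes: 12 Ugt genes, 10 Sult genes and 21 Gst and Mgst genes. Of these, 39 genes were tested, since at least 1 group showed signal well above background on its 2 arrays. The other 4, Sult1e1 (estrogen sulfotransferase), Sult3a1, Ugt1a9 and Ugt2b1, were not well above background on both arrays of any group and are bounded by that only. Among the 39, the probes of 33 were well above background on both arrays of all 5 groups and those of 6 in some groups only.

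The groups, of 2 arrays each, were Sox2 +DOX (TetON-Sox2 mice given doxycycline, DOX), Sox2 -DOX (TetON-Sox2 mice left untreated), Sox2xOct4 +DOX (mice with both the TetON-Sox2 and the TetON-Oct4 transgene, given DOX), Oct4 +DOX (TetON-Oct4 mice given DOX) and rtTA +DOX (controls with rtTA and no TetOP-Sox2 transgene, given DOX). TetON denotes a transgene whose transcription starts when DOX activates the regulator rtTA, and Sox2 and Oct4 (Pou5f1) are regulators of transcription active in the early embryo. All mice were C57BL/6 animals aged 6 to 8 weeks, and DOX was given for 2 days at 2 mg/ml in drinking water with 1% sucrose, so that comparisons with Sox2 -DOX hold DOX and sucrose together. The promoter or cell type that drives rtTA is not named in the labels, and the labels leave unsaid whether both arrays of one group had different mice as their source. The p-values therefore measure the spread between these samples, which may be technical in groups other than Oct4 +DOX, and the number of arrays limits the precision. The Oct4 +DOX arrays differed in signals of sex, given further on, so they came from different mice. Their spread enters the fit that all comparisons share.

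Glucuronosyltransferases (Ugt) sit in the endoplasmic reticulum and transfer glucuronic acid from UDP-glucuronic acid. Cytosolic sulfotransferases (Sult) transfer sulfate from the donor PAPS. Glutathione transferases (Gst, and the membrane-bound Mgst) join glutathione to electrophiles, among them aldehydes from oxidised lipids. In the small intestine these enzymes lie mostly in absorptive enterocytes and act on what is eaten or returned with bile, and the conjugates are pumped out by transporters of the Abc families.

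The members lie in gene clusters, and neighbours in a cluster resemble each other, which bears on both the values and the probes. On build NCBI36/mm8 the probes of the Ugt2 genes lie on chromosome 5 between 87965089 (Ugt2b34) and 88538633 (Ugt2a1), followed on the same chromosome by Sult1b1 (88589482), Sult1d1 (88630194) and Sult1e1 (88650723). The Gstm probes lie on chromosome 3 between 108026239 and 108168999, those of Gsta1, Gsta2 and Gsta4 on chromosome 9 between 77984049 and 78119580, and Gsta3 lies apart on chromosome 1.

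The Ugt2b promoters are shown because 6 Ugt2b genes had lower signal together in Sox2 +DOX ileum, as described further on. RefSeq promoters (GRCm38.p6, 250 bases before to 50 after the start) were at hand for 39 of the 43 members. Those of Ugt2b34, Ugt2b35, Ugt2b36, Ugt2b37, Ugt2b38 and Ugt2b5 each hold the pattern GTTA, any 3 bases, TTTAAC. The pattern was read from these promoters, so its presence in them is a description. It occurs on either strand in 28 of 32851 promoters of the mouse table (0.0852%), and in no other member's promoter. The windows of 75 bases are set so that the pattern, in capitals, is aligned, and all lie before the start of transcription.
Ugt2b5, chromosome 5, 87140342 to 87140416, minus strand: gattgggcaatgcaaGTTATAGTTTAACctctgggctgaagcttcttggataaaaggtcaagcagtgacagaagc
Ugt2b37, chromosome 5, 87254807 to 87254881, minus strand: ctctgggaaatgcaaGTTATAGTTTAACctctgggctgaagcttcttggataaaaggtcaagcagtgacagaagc
Ugt2b38, chromosome 5, 87424208 to 87424282, minus strand: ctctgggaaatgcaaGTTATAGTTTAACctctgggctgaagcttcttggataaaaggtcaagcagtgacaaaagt
Ugt2b36, chromosome 5, 87092560 to 87092634, minus strand: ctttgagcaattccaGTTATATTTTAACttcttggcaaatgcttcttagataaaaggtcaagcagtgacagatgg
Ugt2b35, chromosome 5, 87000775 to 87000849, plus strand: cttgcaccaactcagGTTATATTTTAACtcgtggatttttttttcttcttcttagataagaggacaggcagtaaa
Ugt2b34, chromosome 5, 86906951 to 86907025, minus strand: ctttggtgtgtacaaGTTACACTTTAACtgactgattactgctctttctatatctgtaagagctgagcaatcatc
Over these 75 bases Ugt2b37 and Ugt2b38 were identical at 73 positions, Ugt2b5 and Ugt2b37 at 71 and Ugt2b5 and Ugt2b36 at 61. Ugt2b35 and Ugt2b34 matched Ugt2b5 at 36 and 38. The 4 promoters that resemble each other most belong to the 4 genes with the largest falls. The probes of Ugt2b36 and Ugt2b38 also list other genes among these 4, so the 4 falls are not independent readings. Whether the promoters bear on the falls was not tested.

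Other patterns were searched on both strands in the same promoters. The core of the antioxidant response element, TGACNNNGC, through which the stress factor Nrf2 acts, occurs in 12.4% of all promoters and in 4 of the 19 Gst and Mgst promoters at hand (Gsta3, Gstm5, Gstm7 and Mgst1). Of these genes Gstm5, Gstm7 and Mgst1 neither rose nor fell in any comparison. Whether the core bears on the rise of Gsta3 was not tested. It is shown for Gsta3, chosen as the member that rose most in Sox2xOct4 +DOX ileum, with the match in capitals.
Gsta3, GRCm38.p6 chromosome 1, 21240449 to 21240487, plus strand: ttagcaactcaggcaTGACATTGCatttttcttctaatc
The pattern CATTGT, the core that Sox proteins bind, occurs in 12.6% of all promoters and in those of Gstm7, Sult1a1, Sult5a1 and Ugt2a1. The octamer ATGCAAAT, which Oct4 binds, occurs in 1.74% of all promoters and in that of Ugt1a9 only.

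Close relatives also share probe sequence. The probes of Gsta1 and Gsta2 both list RefSeq transcripts of Gsta1 and Gsta2, and the end of one overlaps the start of the other over 28 bases with 1 mismatch, in capitals.
Gsta1 probe, NCBI36/mm8 chromosome 9, 78021721 to 78025202: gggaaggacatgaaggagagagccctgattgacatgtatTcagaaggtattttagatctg
Gsta2 probe, NCBI36/mm8 chromosome 9, 78119521 to 78119580: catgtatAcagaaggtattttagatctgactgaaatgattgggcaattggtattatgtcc
The Ugt2b38 probe lists transcripts of Ugt2b5, Ugt2b37 and Ugt2b38, and the Ugt2b36 probe lists Ugt2b36 and Ugt2b37. The probe that stands for Ugt1a6b lists 4 genes of the Ugt1a cluster, and the probe that stands for Gstp1 also lists Gstp2. Signals of these genes cannot be assigned to 1 gene with certainty.
Ugt2b38 probe, NCBI36/mm8 chromosome 5, 88496163 to 88496222: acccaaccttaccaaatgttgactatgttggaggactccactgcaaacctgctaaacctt

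Facts of the arrays that bear on the members are given first. The 4 TetON-Sox2 arrays lay on slide 1, the Sox2xOct4 +DOX and rtTA +DOX arrays on slide 2 and the Oct4 +DOX arrays on slide 3, so batch and group cannot be told apart in comparisons between slides. The Pou5f1 probe was well above background only in Oct4 +DOX (log2 levels 6.20 and 4.79) and Sox2xOct4 +DOX (2.64 and 0.92), while the Sox2 probe was not well above background on any array and so does not check the Sox2 labels. The Y-linked gene Eif2s3y was well above background on the 4 TetON-Sox2 arrays and on 1 of the Oct4 +DOX arrays (replicate 1), and below that level on the other 5. Xist, expressed in females, stood at 2.62 to 3.89 on those other 5 arrays and at -8.18 to -6.01 on the arrays with Eif2s3y. Sex, as read from these genes, thus differed between slides 1 and 2 and within Oct4 +DOX. It cannot be told apart from batch and group in comparisons between slides 1 and 2, and its part in the results was not tested. Villin (Vil1), a defining enterocyte gene, and Slc51a and Slc10a2, bile acid transporters of the ileum, were well above background on every array. The summed signal of 10 enterocyte markers, as a multiple of the array's 75th percentile, was 368 to 617 in Sox2 +DOX, against 1020 to 1142 in Sox2 -DOX, and 404 to 906 in Sox2xOct4 +DOX, against 725 to 1226 in rtTA +DOX. Changes in the share of a cell type and in RNA per cell cannot be told apart here, and the part of either in the results was not tested.

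All levels below are log2 signals of a probe relative to the 75th percentile of its array, and all changes are differences of such levels with the SE of the fit (n = 2 against 2). The words rose and fell are kept for genes with a two-sided limma p under 0.05 after Benjamini-Hochberg adjustment over the 19056 genes tested, and such genes are called.

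In Sox2 +DOX against Sox2 -DOX, the classes went different ways. Of the 10 Ugt genes tested 6 fell and 0 rose, of the 8 Sult genes 2 fell and 0 rose, and of the 21 Gst and Mgst genes 5 rose and 0 fell. That makes 13 of 39 members called, where 7.83% of all genes were called (3.03% higher and 4.80% lower). Without adjustment 21 of 39 had a p under 0.05, where 27.1% of all genes had. The median change was -3.17 over the Ugt genes, -0.95 over the Sult genes and 1.02 over the Gst and Mgst genes, against -0.10 over all genes, and all 3 medians kept their sign under quantile normalization, which puts the median of all genes at 0.00. The 4 dimmest Ugt2b genes passed the filter through the groups in which they were high, so the Ugt count is given as a description. With normexp correction and quantile normalization the calls over all genes were 939 higher and 969 lower, where the fit used here gave 578 higher and 915 lower, and the members called were 8 Gst, 2 Sult and 6 Ugt genes.

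**Figure D1:**
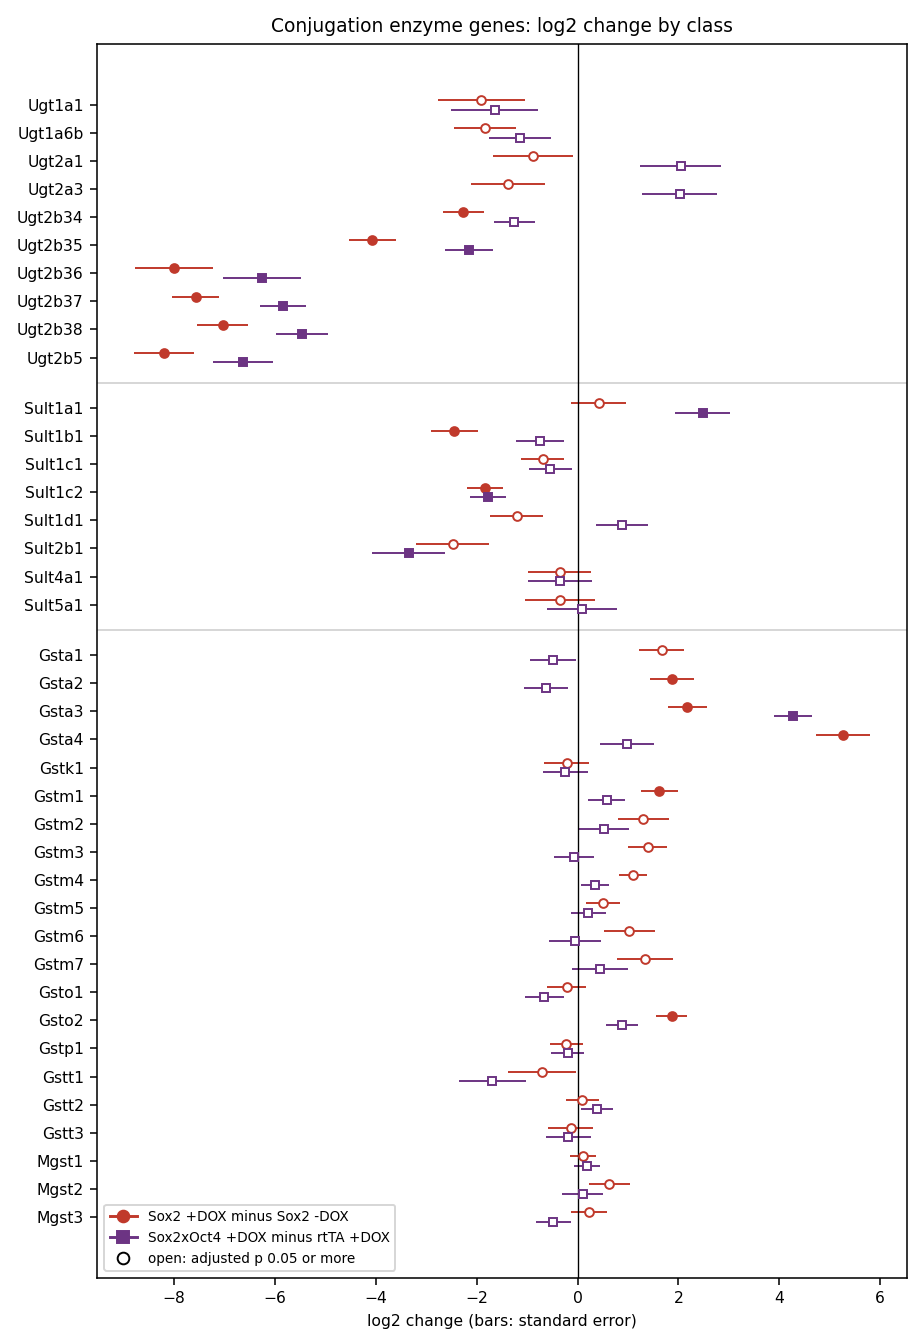
Log2 changes of the 39 tested genes (x axis, with SE bars) by class, for Sox2 +DOX minus Sox2 -DOX (circles) and Sox2xOct4 +DOX minus rtTA +DOX (squares), filled where the adjusted p was under 0.05. The Ugt2b genes lie left of 0 in both, down to -8.20, and Gsta3 and Gsta4 lie farthest right, at up to 5.27.

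The Ugt2b genes, whose enzymes glucuronidate steroids, bile acids and many drugs, lost most signal. Ugt2b5 (probe at chromosome 5, 88199735 to 88199794, NCBI36/mm8) had log2 levels of -8.37 and -7.87 in Sox2 +DOX, against 0.40 and -0.25 in Sox2 -DOX. Both Sox2 +DOX arrays were not well above background and the groups lay far apart. The change was -8.20 ± 0.60 (limma adjusted p = 0.000572), which is at least 85.5-fold lower against the lowest signal well above background.

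Ugt2b36 (chromosome 5, 88140991 to 88155449) stood at -8.52 and -6.70 in Sox2 +DOX, against 0.79 and -0.00 in Sox2 -DOX. It was at least 107-fold lower (-8.00 ± 0.77, adjusted p = 0.00192). Ugt2b37 (88315243 to 88315302) stood at -8.31 and -8.22, against -0.30 and -1.08, and was at least 50.4-fold lower (-7.57 ± 0.46, adjusted p = 0.000407). These levels in Sox2 +DOX also fell below the range of signals well above background. Ugt2b38 (88496163 to 88496222) stood at -6.95 and -7.74 in Sox2 +DOX, against 0.24 and -0.84 in Sox2 -DOX, at least 65.8-fold lower (-7.04 ± 0.51, adjusted p = 0.000572). With the offset of 50 that normexp correction adds to every signal, the changes of these 4 genes were smaller, -3.64 to -2.60, and still called.

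The remaining Ugt2b genes kept measurable signal. Ugt2b35 (88087257 to 88087316) stood at -4.68 and -3.21 in Sox2 +DOX, against 0.14 and 0.10 in Sox2 -DOX, 16.8-fold lower (-4.07 ± 0.47, adjusted p = 0.00378). Ugt2b34 (87965089 to 87965148) stood at 0.07 and 1.07, against 3.05 and 2.63, 4.83-fold lower (-2.27 ± 0.41, adjusted p = 0.0169). Neither pair of groups overlapped, and the fall of Ugt2b34 was the smallest of the 6.

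The Ugt1 genes did not pass. Ugt1a1, the enzyme that conjugates bilirubin, stood at -4.01 and -1.27 in Sox2 +DOX, against -0.11 and -1.35 in Sox2 -DOX (-1.91 ± 0.86, adjusted p = 0.197), with overlapping groups. The probe named Ugt1a6b, which reads several Ugt1a transcripts, stood at 2.33 and 4.48, against 5.43 and 5.05 (-1.84 ± 0.62, adjusted p = 0.106). In both, Sox2 +DOX replicate 1 was the lower array, and without replicate 2 of that group both were called.

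Sult1b1 (chromosome 5, 88589482 to 88589541), which acts on thyroid hormones and small phenols, stood at 1.86 and 2.70 in Sox2 +DOX, against 5.08 and 4.36 in Sox2 -DOX. It fell 5.43-fold (-2.44 ± 0.47, adjusted p = 0.022), and its second probe gave -2.49. Sult1c2 (chromosome 17, 53294809 to 53294868) stood at -2.29 and -1.36, against 0.08 and -0.05, a fall of 3.58-fold (-1.84 ± 0.36, adjusted p = 0.023). The arrays of the groups did not overlap in either gene.

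Sult2b1, which sulfates cholesterol and related sterols, stood at -1.22 and 0.54 in Sox2 +DOX, against 2.43 and 1.86 in Sox2 -DOX, and did not pass (-2.48 ± 0.72, adjusted p = 0.0738). Sult1d1, which in mice acts on catecholamines, gave -1.21 ± 0.52 (adjusted p = 0.179). The other 4 tested, Sult1a1, Sult1c1, Sult4a1 and Sult5a1, gave changes between -0.69 and 0.42, none called.

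**Figure D2:**
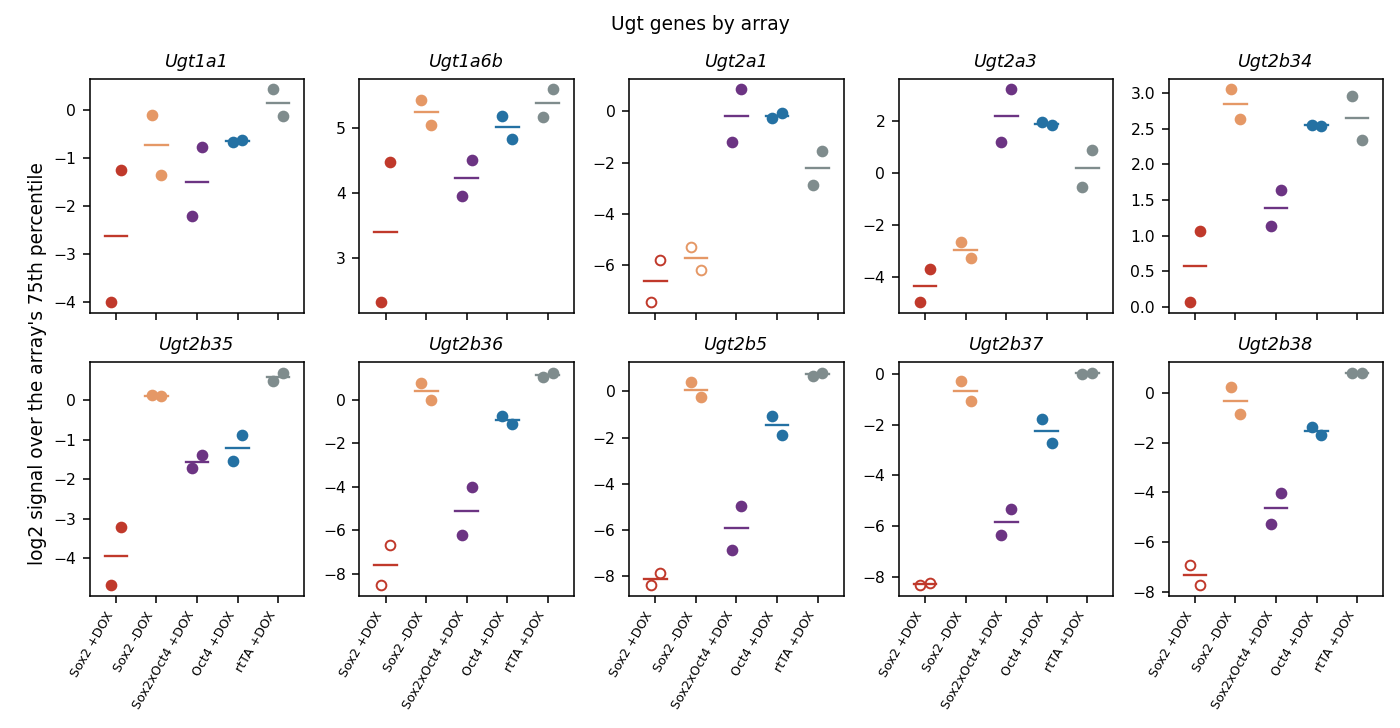
Log2 levels of the 10 tested Ugt genes on each array (points) with group means (lines), groups from left to right Sox2 +DOX, Sox2 -DOX, Sox2xOct4 +DOX, Oct4 +DOX and rtTA +DOX, open points where the group was not well above background on both arrays. Ugt2b5, Ugt2b36, Ugt2b37 and Ugt2b38 are not well above background in Sox2 +DOX and are low in Sox2xOct4 +DOX, while Ugt2a1 and Ugt2a3 are low on all 4 TetON-Sox2 arrays.

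The glutathione transferases that rose were mainly of the alpha class. Gsta4 (chromosome 9, 77984049 to 77985221), which removes 4-hydroxynonenal and other aldehydes of lipid peroxidation, stood at 3.72 and 4.10 in Sox2 +DOX, against -1.29 and -1.42 in Sox2 -DOX. It rose 38.5-fold (5.27 ± 0.54, adjusted p = 0.00216), the largest rise of any member in this comparison. Gsta3 (chromosome 1, 21250259 to 21250318), which in mice detoxifies the epoxide of aflatoxin, stood at 2.94 and 2.50, against 0.38 and 0.70, and rose 4.53-fold (2.18 ± 0.38, adjusted p = 0.0156). Its second probe gave 2.01.

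Gsta2 stood at 4.02 and 4.79 in Sox2 +DOX, against 2.39 and 2.67 in Sox2 -DOX, a rise of 3.67-fold (1.88 ± 0.44, adjusted p = 0.0407). Gsta1, whose probe overlaps that of Gsta2 as printed above, stood at 5.08 and 5.88, against 3.68 and 3.94 (1.67 ± 0.45, adjusted p = 0.0586), and was called under both quantile settings. Groups did not overlap in any of the 4 alpha genes.

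Of the 7 mu class genes 1 rose, and all 7 changes were above 0, with a median of 1.30. Gstm1 stood at 4.62 and 4.76 in Sox2 +DOX, against 3.03 and 3.11 in Sox2 -DOX (1.62 ± 0.37, 3.08-fold, adjusted p = 0.0363), and its second probe gave 1.57. Gstm3 (1.39 ± 0.39, adjusted p = 0.0654) and Gstm4 (-1.19 and -1.23 in Sox2 +DOX, against -2.28 and -2.36 in Sox2 -DOX, adjusted p = 0.0509) missed the threshold, and were called under both quantile settings. Gsto2, an omega class enzyme that reduces dehydroascorbate, stood at -2.17 and -2.69, against -4.40 and -4.18, and rose 3.64-fold (1.87 ± 0.31, adjusted p = 0.0136). Its neighbour Gsto1 gave -0.22 ± 0.39 (adjusted p = 0.746).

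The other classes moved little. Gstp1, the pi class enzyme, gave -0.22 ± 0.33 (adjusted p = 0.694), and the 3 Mgst genes gave 0.10 to 0.63. The theta genes Gstt1, Gstt2 and Gstt3 gave -0.70, 0.10 and -0.14, and the kappa gene Gstk1 gave -0.22. None of these 8 passed the test.

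Each of the 4 arrays compared was left out in turn. Ugt2b5, Ugt2b35, Ugt2b36, Ugt2b37, Ugt2b38 and Gsta4 were called every time. Ugt2b34, Sult1b1, Sult1c2, Gsta3 and Gsto2 lost the call when Sox2 +DOX replicate 1 or either Sox2 -DOX array was missing, and Gsta2 and Gstm1 without any of the 4. The count of members called was 6 without Sox2 -DOX replicate 1, Sox2 +DOX replicate 1 or Sox2 -DOX replicate 2, where 0.866%, 1.23% and 1.49% of all genes were called, and 14 without Sox2 +DOX replicate 2, where 9.07% were. The changes of these 7 genes kept their sign, between -2.87 and -1.38 for those that fell and between 1.49 and 2.40 for those that rose.

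**Figure D3:**
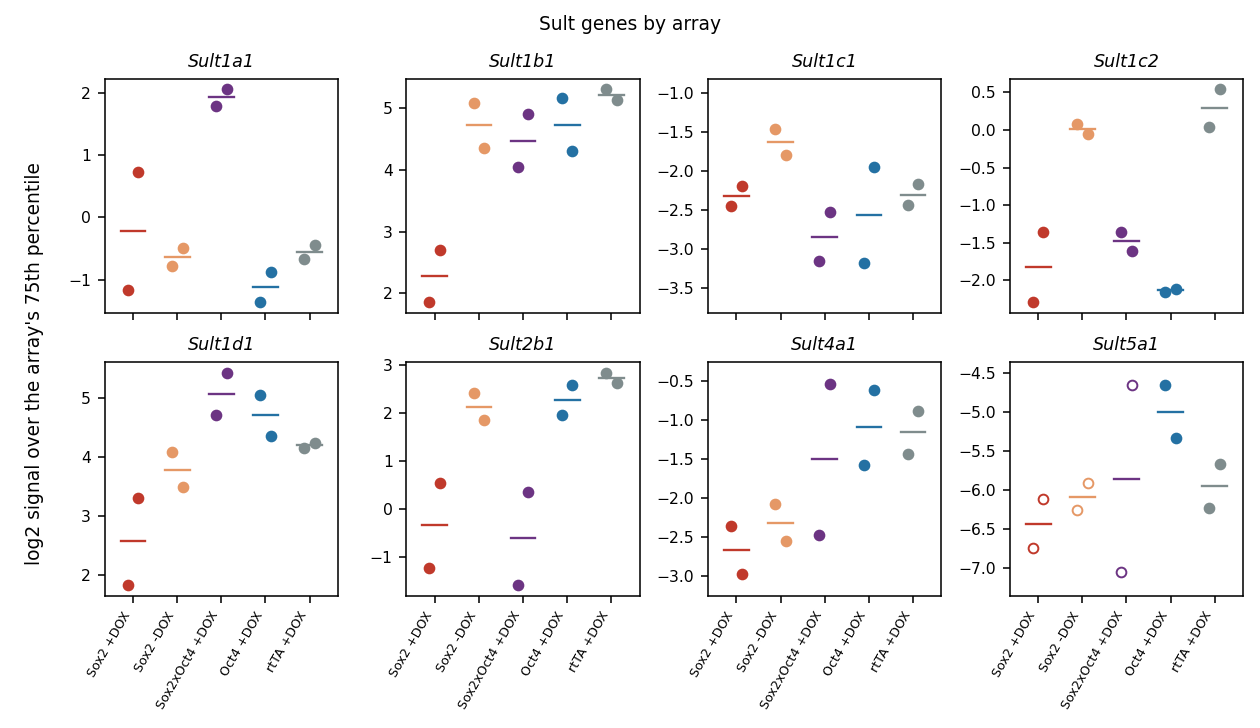
Log2 levels of the 8 tested Sult genes on each array (points) with group means (lines), groups in the order Sox2 +DOX, Sox2 -DOX, Sox2xOct4 +DOX, Oct4 +DOX and rtTA +DOX, open points where a group was not well above background on both arrays. Sult1c2 is lower in Sox2 +DOX, Sox2xOct4 +DOX and Oct4 +DOX than in Sox2 -DOX and rtTA +DOX, and Sult1a1 is highest in Sox2xOct4 +DOX, at 1.80 and 2.05.

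The comparison of Sox2xOct4 +DOX with rtTA +DOX, both on slide 2 and both given DOX, asks what both transgenes do together without a difference in DOX. Of the 10 Ugt genes 5 fell and 0 rose, of the 8 Sult genes 2 fell and 1 rose, and of the 21 Gst and Mgst genes 1 rose and 0 fell. These are 9 of 39 members, where 6.34% of all genes were called (3.19% higher and 3.15% lower). Without adjustment 14 of 39 had a p under 0.05, where 23.9% of all genes had. The median change was -1.90 over the Ugt genes, -0.44 over the Sult genes and 0.11 over the Gst and Mgst genes, against 0.07 over all genes.

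Of the 6 tested Ugt2b genes 5 fell, to levels that stayed well above background, some of them near its lower limit. On Sox2xOct4 +DOX replicate 1 the lowest signal well above background was -6.96. Ugt2b5 stood at -6.84 and -4.95 in Sox2xOct4 +DOX, against 0.65 and 0.81 in rtTA +DOX (-6.63 ± 0.60, adjusted p = 0.00174). Ugt2b36 stood at -6.21 and -4.02, against 1.03 and 1.25 (-6.26 ± 0.77, 76.4-fold lower, adjusted p = 0.00579). The replicates of Sox2xOct4 +DOX differed by more than those of rtTA +DOX, and replicate 1 was the lower in both genes.

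Ugt2b37 stood at -6.33 and -5.31 in Sox2xOct4 +DOX, against 0.00 and 0.04 in rtTA +DOX (-5.84 ± 0.46, 57.3-fold lower, adjusted p = 0.000814). Ugt2b38 stood at -5.26 and -4.03, against 0.83 and 0.81 (-5.46 ± 0.51, 44.1-fold lower, adjusted p = 0.00202). With normexp correction the changes of these 4 genes were -3.97 to -3.05. Ugt2b35 stood at -1.71 and -1.39, against 0.50 and 0.71, and fell 4.45-fold (-2.15 ± 0.47, adjusted p = 0.0366). Ugt2b34 gave -1.26 ± 0.41 and did not pass (adjusted p = 0.109).

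Ugt2a1, a form first known from the olfactory epithelium, and Ugt2a3, whose human form glucuronidates bile acids, did not share this direction, although the Ugt2a3 probe (88399942 to 88400001) lies between those of Ugt2b37 and Ugt2b38. Ugt2a3 stood at 1.21 and 3.23 in Sox2xOct4 +DOX, against -0.51 and 0.91 in rtTA +DOX (2.02 ± 0.74, adjusted p = 0.145). Ugt2a1 stood at -1.20 and 0.85, against -2.88 and -1.55 (2.04 ± 0.79, adjusted p = 0.166), and its second probe gave 2.24. Neither passed the test.

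Among the sulfotransferases, Sult2b1 stood at -1.58 and 0.37 in Sox2xOct4 +DOX, against 2.85 and 2.64 in rtTA +DOX, and fell 10.2-fold (-3.35 ± 0.72, adjusted p = 0.035). Sult1c2 stood at -1.36 and -1.61, against 0.04 and 0.54 (-1.77 ± 0.36, 3.42-fold lower, adjusted p = 0.029). Sult1a1 (chromosome 7, 126464239 to 126464298), the broad phenol sulfotransferase, went the other way, at 1.80 and 2.05, against -0.67 and -0.45, a rise of 5.59-fold (2.48 ± 0.54, adjusted p = 0.0372). The groups did not overlap in any of the 3 genes. Sult1b1 gave -0.74 ± 0.47 (adjusted p = 0.381) and Sult1d1 0.88 ± 0.52 (adjusted p = 0.35).

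Gsta3 was the glutathione transferase called here, and it kept the call under every alternative tried, each array left out included. It stood at 3.84 and 4.26 in Sox2xOct4 +DOX, against -0.54 and 0.09 in rtTA +DOX, and rose 19.3-fold (4.27 ± 0.38, adjusted p = 0.00168), with 4.21 at its second probe. Gsta4 stood at 1.77 and 0.07, against -0.51 and 0.39, in groups that overlapped (0.98 ± 0.54, adjusted p = 0.314). Gsta1 gave -0.49 ± 0.45 (adjusted p = 0.554) and Gsta2 -0.62 ± 0.44 (adjusted p = 0.433).

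The mu class had a median change of 0.34, with 5 of 7 above 0 and none called. Gsto2 gave 0.88 ± 0.31 (adjusted p = 0.135) and Gstt1 -1.69 ± 0.67 (adjusted p = 0.168). Leaving out each of the 4 arrays in turn, Ugt2b5, Ugt2b37, Ugt2b38 and Gsta3 were called every time. The count of members called was 4 without rtTA +DOX replicate 1, 5 without rtTA +DOX replicate 2, 5 without Sox2xOct4 +DOX replicate 1 and 6 without Sox2xOct4 +DOX replicate 2, where 0.551%, 1.08%, 1.89% and 5.65% of all genes were called. Ugt2b36 lost the call without rtTA +DOX replicate 1 (-6.36, adjusted p = 0.0532), Sult2b1 without either rtTA +DOX array or Sox2xOct4 +DOX replicate 1, at changes of -4.33 to -2.38 over the arrays left out, and Ugt2b35, Sult1a1 and Sult1c2 without any of the 4, at -2.32 to -1.99, 2.35 to 2.61 and -2.02 to -1.52.

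**Figure D4:**
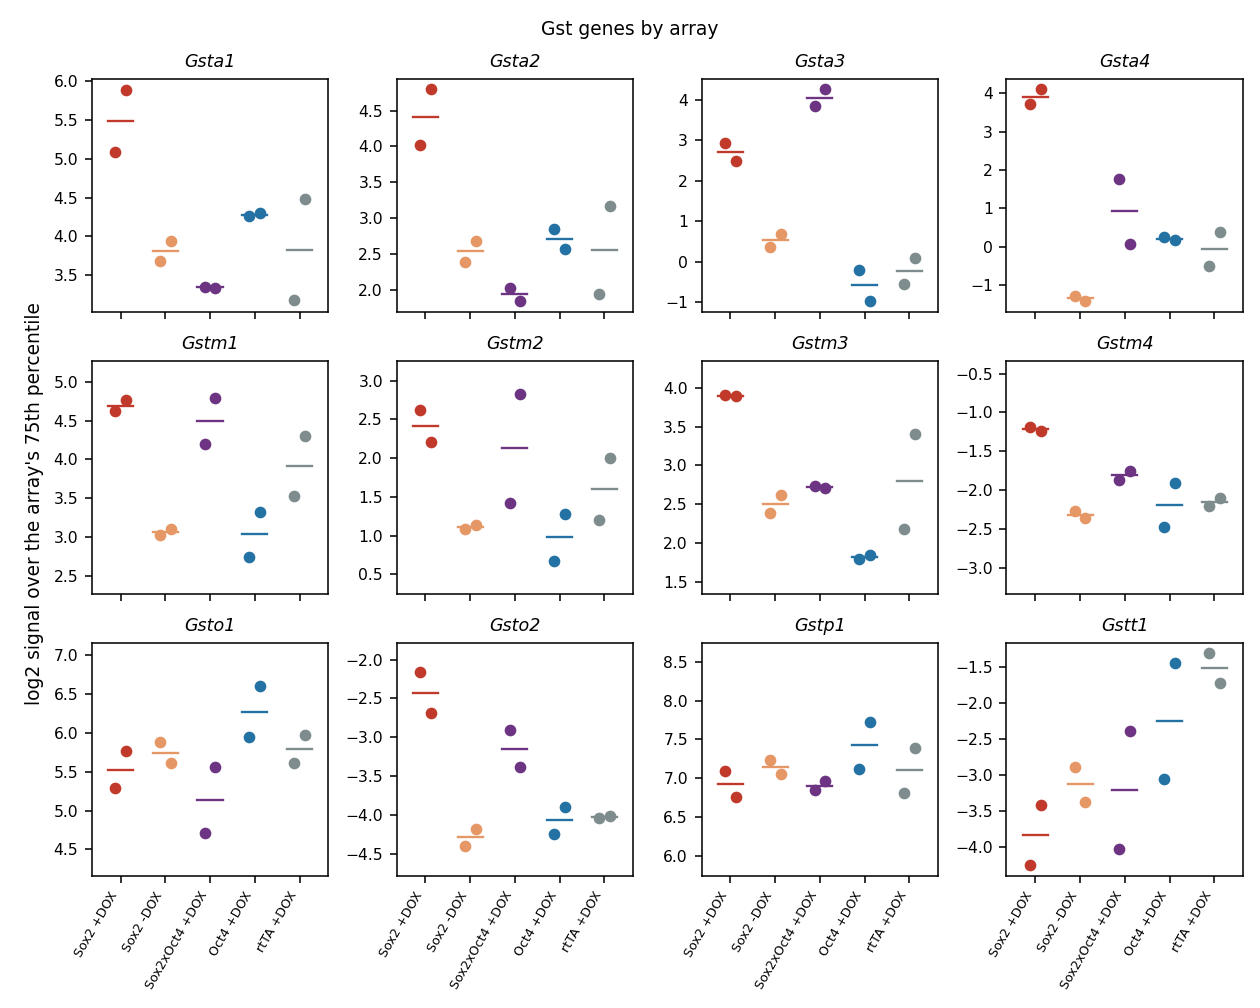
Log2 levels of 12 Gst genes on each array (points) with group means (lines), groups in the order Sox2 +DOX, Sox2 -DOX, Sox2xOct4 +DOX, Oct4 +DOX and rtTA +DOX, all well above background. Gsta4 is highest in Sox2 +DOX, at 3.72 and 4.10, and Gsta3 in Sox2xOct4 +DOX, at 3.84 and 4.26, while Gstp1 lies between 6.76 and 7.73 and Gsto1 between 4.71 and 6.61 on the 10 arrays.

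The responses were set against each other as a difference, (Sox2 +DOX minus Sox2 -DOX) minus (Sox2xOct4 +DOX minus rtTA +DOX), a contrast that spans slides and sexes. No member was called (0 of 39, where 0.168% of all genes were called, 0.021% higher and 0.147% lower). An unadjusted p under 0.05 was found for 12 of 39, where 9.61% of all genes had. Gsta4 came closest, with a difference of 4.29 ± 0.76 (adjusted p = 0.104), which passed only without Sox2xOct4 +DOX replicate 1. Gsta3 differed the other way by -2.09 ± 0.54 (adjusted p = 0.238), and Gsta2 by 2.50 ± 0.62 (adjusted p = 0.222). The median difference was -1.65 over the Ugt genes, -0.30 over the Sult genes and 0.76 over the Gst and Mgst genes, against -0.09 over all genes.

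Oct4 +DOX against rtTA +DOX gave 1 called member of 39, a fall, where 1.01% of all genes were called (0.724% higher and 0.283% lower). This comparison spans slides, and Oct4 +DOX replicate 1 differs in sex from the other arrays in it. Sult1c2 stood at -2.15 and -2.11 in Oct4 +DOX, against 0.04 and 0.54 in rtTA +DOX, and fell 5.37-fold (-2.42 ± 0.36, adjusted p = 0.024). The call was lost when any of the 4 arrays was left out, at changes of -2.67 to -2.18. Sult1c2 was thus lower in each group with an induced transgene, but the Oct4 +DOX and Sox2xOct4 +DOX comparisons share the rtTA +DOX arrays.

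None of the 6 tested Ugt2b genes passed in Oct4 +DOX. Ugt2b37 stood at -1.77 and -2.74, against 0.00 and 0.04 in rtTA +DOX (-2.28 ± 0.46, adjusted p = 0.0674). Ugt2b38 gave -2.34 ± 0.51 (adjusted p = 0.0846), Ugt2b5 -2.20 ± 0.60 (adjusted p = 0.149) and Ugt2b36 -2.06 ± 0.77 (adjusted p = 0.287), and the groups did not overlap in any of these 4. Ugt2b35 gave -1.82 ± 0.47 (adjusted p = 0.134), and Ugt2b34 stood at 2.56 and 2.54 in Oct4 +DOX, against 2.95 and 2.34 in rtTA +DOX, in groups that overlapped (-0.10 ± 0.41, adjusted p = 0.944). Some settings called members of the first 4, with quantile normalization calling Ugt2b37, a fit to these groups alone Ugt2b38, and normexp correction Ugt2b36, Ugt2b38 and Ugt2b5. Among the groups in which they were well above background, the mean levels of Ugt2b5, Ugt2b36, Ugt2b37 and Ugt2b38 stood in the order Sox2xOct4 +DOX, Oct4 +DOX, Sox2 -DOX, rtTA +DOX from low to high, and rtTA +DOX against Sox2 -DOX called none of them. In Sox2 +DOX they were not well above background, so that group has no measured rank against Sox2xOct4 +DOX.

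Sox2 +DOX against rtTA +DOX shares arrays with the comparisons above and spans 2 slides and both sexes. It called 15 of 39 members, where 8.37% of all genes were called (3.23% higher and 5.14% lower). Over all genes that was 615 higher and 980 lower, and 945 higher and 954 lower with normexp correction. Of the Ugt genes 8 fell, of the Sult genes 3 fell, and of the Gst and Mgst genes 4 rose. All 6 tested Ugt2b genes fell. Ugt2b34 fell by 2.08 and Ugt2b35 by 4.55 on the log2 scale, while Ugt2b37, Ugt2b5, Ugt2b38 and Ugt2b36, not well above background in Sox2 +DOX, were at least 82.6-fold, 135-fold, 143-fold and 179-fold lower. Sult1b1 gave -2.94 ± 0.47 (adjusted p = 0.0113), Sult2b1 -3.08 ± 0.72 (adjusted p = 0.0383) and Sult1c2 -2.12 ± 0.36 (adjusted p = 0.0136). Gsta4 gave 3.97 ± 0.54 (adjusted p = 0.00612), Gsta3 2.94 ± 0.38 (adjusted p = 0.00517), Gsta2 1.85 ± 0.44 (adjusted p = 0.0404) and Gsto2 1.60 ± 0.31 (adjusted p = 0.0218). With rtTA +DOX replicate 1, Sox2 +DOX replicate 1, rtTA +DOX replicate 2 or Sox2 +DOX replicate 2 left out, 6, 7, 9 and 17 members were called, where 1.02%, 1.51%, 2.15% and 8.77% of all genes were. Ugt2b5, Ugt2b35, Ugt2b36, Ugt2b37 and Ugt2b38 were called each time, and the other 10 lost the call at least once, Gsta3 (2.63, adjusted p = 0.0558) and Gsta4 (3.52, adjusted p = 0.0633) without rtTA +DOX replicate 1.

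This comparison also called Ugt2a3 and Ugt2a1, the second named after its values were seen. Ugt2a3 stood at -4.96 and -3.70 in Sox2 +DOX, against -0.51 and 0.91 in rtTA +DOX (-4.53 ± 0.74, adjusted p = 0.0119), and Ugt2a1 at -7.42 and -5.78, against -2.88 and -1.55 (-4.38 ± 0.79, adjusted p = 0.0166). Both were also low in Sox2 -DOX, at -2.63 and -3.27 for Ugt2a3 and at -5.28 and -6.16 for Ugt2a1. In Sox2 +DOX against Sox2 -DOX they gave -1.38 ± 0.74 (adjusted p = 0.266) and -0.88 ± 0.79 (adjusted p = 0.502). The low arrays were thus the 4 TetON-Sox2 arrays of slide 1, with and without DOX. Ugt2a1 was well above background on 1 array each of Sox2 +DOX and Sox2 -DOX.

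Lactase (Lct), an enterocyte gene, was also low on the 4 arrays of slide 1, at -5.77 and -3.20 in Sox2 +DOX, -3.53 and -3.16 in Sox2 -DOX, 0.76 and 2.93 in Sox2xOct4 +DOX, -0.84 and 3.82 in Oct4 +DOX and 3.21 and 5.79 in rtTA +DOX. Against rtTA +DOX it gave -2.66 ± 1.57 in Sox2xOct4 +DOX and -3.01 ± 1.57 in Oct4 +DOX, opposite in sign to Ugt2a1 and Ugt2a3 (adjusted p = 0.347 and 0.463). Lct was not typical of the enterocyte markers. In rtTA +DOX against Sox2 -DOX it gave 7.85 ± 1.57 (limma adjusted p = 0.446), while the median over the 10 markers, Lct among them, was -0.06. The summed signal of the 10 was 1020 to 1142 in Sox2 -DOX and 725 to 1226 in rtTA +DOX. Fabp6, the ileal bile acid binding protein, stood between 1.03 and 3.74 on all 10 arrays. The arrays with Eif2s3y were the same 4 and Oct4 +DOX replicate 1, and on that array Ugt2a1 stood at -0.27, against -0.06 on Oct4 +DOX replicate 2. Slide and group cannot be told apart in these levels, and the part of slide, genotype or sex was not tested. The call of Ugt2a3 was lost without Sox2 +DOX replicate 1 or rtTA +DOX replicate 2, at changes of -5.24 to -3.82 over the arrays left out. That of Ugt2a1 was lost without Sox2 +DOX replicate 1, without either rtTA +DOX array, and with normexp correction and quantile normalization.

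The control groups were compared with each other, rtTA +DOX against Sox2 -DOX. They differ in DOX, sucrose, the Sox2 transgene, slide and sex, the last as read from Eif2s3y and Xist. No member and no gene was called in limma (0 of 39 and 0% of all genes), and 5 members had an unadjusted p under 0.05, where 5.61% of all genes had. These were Ugt2a1 (3.50 ± 0.79, adjusted p = 0.453), Ugt2a3 (3.15 ± 0.74, adjusted p = 0.453), Gstt1 (1.62 ± 0.67), Gsta4 (1.29 ± 0.54) and Gstm1 (0.84 ± 0.37), all named after their values were seen. Eif2s3y (-10.94 ± 2.40) and Xist (11.28 ± 2.36) were not called either (limma adjusted p = 0.453 for each), although the groups did not overlap. Their SE includes the spread of the Oct4 +DOX arrays, which differ in sex. The absence of calls thus does not show that the control groups were alike. Gsta4 was lower in Sox2 -DOX than in every other group, so its change was 5.27 against Sox2 -DOX and 3.97 against rtTA +DOX. The Ugt2b genes gave -0.19 to 1.12.

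Conjugation also needs donors, and genes that supply them were counted from a list of 17, of which 16 could be tested. The counts of this and the following lists stand beside 7.83% of all genes called in Sox2 +DOX against Sox2 -DOX (4.80% lower, median change -0.10) and 6.34% in Sox2xOct4 +DOX against rtTA +DOX (3.15% lower, median change 0.07). In Sox2 +DOX against Sox2 -DOX 2 fell and 0 rose (median -0.21), and in Sox2xOct4 +DOX against rtTA +DOX 3 fell and 1 rose (median -0.53). Slc13a1, the sodium sulfate cotransporter of gut and kidney, stood at -5.17 and -2.50 in Sox2 +DOX, against 5.13 and 4.88 in Sox2 -DOX (-8.84 ± 1.16, adjusted p = 0.0065), and at -1.88 and 1.65 in Sox2xOct4 +DOX, against 4.70 and 4.66 in rtTA +DOX (-4.80 ± 1.16, adjusted p = 0.049).

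The sulfate transporter Slc26a2 fell in both comparisons (-2.06 ± 0.44, adjusted p = 0.03, and -2.24 ± 0.44, adjusted p = 0.026). Papss2, which makes PAPS, gave -0.80 ± 0.30 (adjusted p = 0.14) in Sox2 +DOX and fell in Sox2xOct4 +DOX (-1.77 ± 0.30, adjusted p = 0.017). Slc7a11, which imports cystine for glutathione synthesis, rose in Sox2xOct4 +DOX against rtTA +DOX (4.42 ± 0.84, adjusted p = 0.024). Genes of UDP-glucuronic acid and glutathione synthesis, Ugdh (-0.60 ± 0.29, adjusted p = 0.22), Gclc (0.63 ± 0.40, adjusted p = 0.34) and Gss (0.34 ± 0.36, adjusted p = 0.57), did not pass in Sox2 +DOX.

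Of 17 genes for export, release and further processing of conjugates, all tested, 4 fell and 2 rose in Sox2 +DOX against Sox2 -DOX (median -0.73), where 7.83% of all genes were called, and 4 fell and 2 rose in Sox2xOct4 +DOX against rtTA +DOX (median -0.63), where 6.34% were. The apical pumps Abcc2 (-3.72 ± 0.70, adjusted p = 0.02) and Abcg2 (-3.09 ± 0.46, adjusted p = 0.0091) fell in Sox2 +DOX, and so did Ggt1 (-7.41 ± 0.94, adjusted p = 0.0055) and Dpep1 (-5.68 ± 0.98, adjusted p = 0.015), which trim glutathione conjugates on the brush border. Abcc1 (1.97 ± 0.43, adjusted p = 0.032) and Abcc4 (2.17 ± 0.38, adjusted p = 0.016), pumps usually placed in other membranes of the cell, rose.

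**Figure D5:**
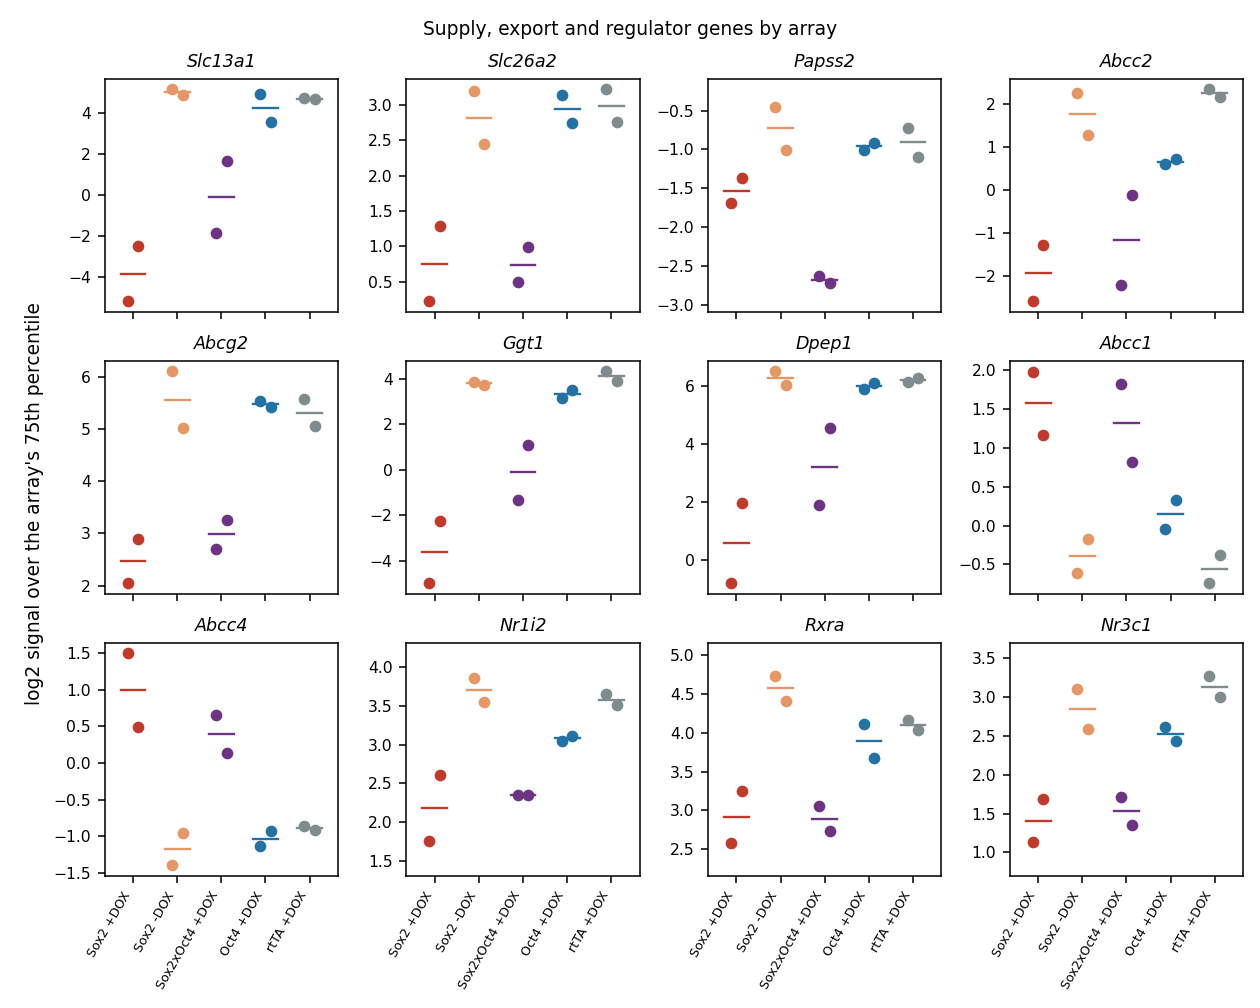
Log2 levels of 12 genes of donor supply, export and regulation on each array (points) with group means (lines), groups in the order Sox2 +DOX, Sox2 -DOX, Sox2xOct4 +DOX, Oct4 +DOX and rtTA +DOX. Slc13a1 and Ggt1 are lowest in Sox2 +DOX, at -5.17 and -2.50 and at -4.97 and -2.25, and Abcc1 is higher in Sox2 +DOX and Sox2xOct4 +DOX than in the other groups.

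Of 16 regulators, all tested, 3 fell in Sox2 +DOX against Sox2 -DOX (median -1.09) and 1 fell in Sox2xOct4 +DOX against rtTA +DOX (median -0.997), where 4.80% and 3.15% of all genes fell. The xenobiotic receptor PXR (Nr1i2) stood at 1.76 and 2.60 in Sox2 +DOX, against 3.86 and 3.55 in Sox2 -DOX (-1.52 ± 0.33, adjusted p = 0.031). Its partner Rxra gave -1.66 ± 0.33 (adjusted p = 0.025) and the glucocorticoid receptor Nr3c1 -1.44 ± 0.32 (adjusted p = 0.035), and Nr3c1 also fell in Sox2xOct4 +DOX (-1.60 ± 0.32, adjusted p = 0.029). Nfe2l2 (Nrf2), which acts through the antioxidant response element, gave 0.25 ± 0.39 (adjusted p = 0.7) in Sox2 +DOX and -0.13 ± 0.39 (adjusted p = 0.88) in Sox2xOct4 +DOX.

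Of 17 conjugating enzymes outside the 3 families 13 could be tested, and 2 fell and 1 rose in Sox2 +DOX against Sox2 -DOX (median -0.61), where 4.80% of all genes fell and 3.03% rose. Baat, which joins bile acids to taurine or glycine, was among those that fell (-5.21 ± 0.74, adjusted p = 0.008). Glyat, which joins glycine to acids, stood at -1.26 and -3.32, against -8.15 and -8.02 in Sox2 -DOX, where it was not well above background (adjusted p = 0.0093).

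Some markers of cell types were called as well, beside 7.83% and 6.34% of all genes in the same comparisons. In Sox2 +DOX against Sox2 -DOX 2 of 10 enterocyte markers fell (median -1.40), Alpi (-4.74 ± 0.81, adjusted p = 0.014) and Mttp (-3.37 ± 0.53, adjusted p = 0.012), and in Sox2xOct4 +DOX against rtTA +DOX 1 fell (median -1.08). Of 7 ileum markers 4 fell in the first (median -2.07) and 1 in the second (median -2.04). Of 9 tested markers of stomach and foregut, tissue in which Sox2 is normally present, 3 rose in each (medians 0.74 and 1.53). In Oct4 +DOX against rtTA +DOX 2 of the same 9 rose (median 0.88), where 0.724% of all genes rose, so rises were not confined to the groups with the Sox2 transgene. The summed signal of those 9 was 7.22 to 11.8 times the 75th percentile in Sox2 +DOX, against 1.66 to 1.68 in Sox2 -DOX. It was 13.2 to 28.3 in Sox2xOct4 +DOX and 1.37 to 2.51 in Oct4 +DOX, against 1.83 to 2.40 in rtTA +DOX. Lipf rose in Sox2 +DOX (7.37 ± 0.71, limma adjusted p = 0.0019) and in Sox2xOct4 +DOX (10.69 ± 0.71, adjusted p = 0.00041). In rtTA +DOX its level lay near or below the lowest signals well above background, so the size of the second rise is uncertain.

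Of 6 liver markers tested, 1 rose and 1 fell in Sox2 +DOX, where the summed signal was 0.58 to 1.01, against 2.18 to 2.50 in Sox2 -DOX, and albumin (Alb) was not well above background in either. Goblet (5), Paneth (4), smooth muscle (6), adipocyte (5) and pancreas (1) markers tested had none called in Sox2 +DOX against Sox2 -DOX. Their median changes were -0.96, -0.07, -1.37, -3.02 and -0.27 in that order, so the absence of calls does not show that these cell types were unchanged. The summed signal of the adipocyte markers was 4.60 to 7.88, against 22.1 to 32.3, and that of smooth muscle 38.5 to 51.0, against 92.6 to 129. Of 6 T cell markers 1, Cd3d, fell (-2.08 ± 0.35, limma adjusted p = 0.014). The part of these cell types in the changes of the conjugation genes was not tested.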

How the data were processed

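Ileal RNA from 10 samples in 5 groups was measured on Agilent arrays, and samples were grouped by their titles. The deposited scanner files hold the processed intensity per spot, background-subtracted and detrended without normalization between arrays, and the mean and background intensity, per the file headers. The headers name Feature Extraction 9.5.3.1 (slide 1), 10.7.1.1 (slide 2) and 10.7.3.1 (slide 3), and the submitters' processing notes name 9.1. A deposited signal table of the authors, of unstated normalization, covers the TetON-Sox2 arrays and served as an alternative.

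Control spots and those marked as outliers were removed, and repeated spots averaged. Log2 processed intensities were set relative to the 75th percentile of each array (544 to 1613). Of 41143 probes, 28761 passed the filter, being well above background throughout some group, and the brightest on average represented its gene. Groups were compared with limma 3.58.1 (R 4.3.3) over all 10 arrays (5 residual degrees of freedom), and the script was tested on simulated data. For a gene not well above background in 1 group, the fold is a bound against the lowest signal well above background. Levels of different probes are not comparable.

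The members and gene lists were chosen with earlier results of these data known. Named by rule were Sox2 and Pou5f1, the called members of a comparison (in the first 2, up to 12 per class and the 4 with the smallest p, in others up to 6), and up to 4 genes per list. Further members and list genes were named after their values were seen, to account for every member, and some list genes are not reported here. Same-numbered replicates correlated at -0.128 to 0.275 in their deviations from group means, so the numbers were not taken as pairs. Alternatives were other normalization, filters, probes, blocks, a fit to fewer groups, and each array left out. A lower limit on signals, at the dimmest one well above background, was added after the data were seen.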

Additional observations from a re-analysis of the deposited data

How the results depend on the processing

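For 42 log2 changes chosen by the naming rule, none of 463 values under the alternatives reversed its sign, 379 kept their side of the threshold, 83 lost and 1 gained the call. The 463 include values for the slide as a block, which repeat the fit used here and so could not differ from it. Changes outside the 42 also gained calls under some alternatives. These were Gsta1, Gstm3, Gstm4, Gstt1, Sult1d1, Ugt1a1 and Ugt1a6b in Sox2 +DOX, Ugt2b5, Ugt2b36, Ugt2b37 and Ugt2b38 in Oct4 +DOX, and Gsta4 in the difference of responses. With 2 arrays a group, moderate changes depend on single arrays. Leaving out each array in turn gave 6 to 14 members called in Sox2 +DOX against Sox2 -DOX (5 to 8 Ugt, 0 to 3 Sult, 1 to 3 Gst and Mgst), 4 to 6 in Sox2xOct4 +DOX against rtTA +DOX (3 to 4 Ugt, 0 to 1 Sult, 1 Gst), 6 to 17 in Sox2 +DOX against rtTA +DOX, 0 in Oct4 +DOX against rtTA +DOX, and 0 to 1 for the difference of responses. A fit to only the groups compared, with fewer samples, called 8 members in Sox2 +DOX against Sox2 -DOX (0 Sult, 3 Gst), 1 Sult gene in Sox2xOct4 +DOX and 2 members in Oct4 +DOX. The authors' table called 0 Sult genes. Quantile normalization called 8 Gst genes in Sox2 +DOX and 2 members in Oct4 +DOX, normexp with quantile 8 and 4, and no filter, with more genes tested, 3 Gst genes. Where no cause is named, it was not tested. With the replicate number as a block, Sox2 +DOX against Sox2 -DOX had 14 called members (Gsta1 added), 9 in Sox2xOct4 +DOX, 16 in Sox2 +DOX against rtTA +DOX and 1 in Oct4 +DOX. The slide as a block could not be fitted apart from the groups, since each group lay on 1 slide, so it is no check on the results. Over all genes the unfiltered fit called 932 in Sox2 +DOX against Sox2 -DOX, where the filtered fit called 1493, and a fit to those 4 arrays 640. Signals near background limit the size of the Ugt2b falls, whose median was -7.31, and -2.84 with normexp.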

Other observations

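Among genes that RefSeq names as Sult or Gst but the array annotation does not, 7 genes with 9 probes were found, of which 3 passed the filter. Gstt4, a theta class gene, stood at -4.82 and -3.74 in Sox2xOct4 +DOX, against -6.07 and -6.61 in rtTA +DOX, and was not called (2.06 ± 0.66, limma adjusted p = 0.105). It passed the filter only through Sox2xOct4 +DOX, where it was high, and was well above background on 1 rtTA +DOX array. Sult2a8 stood between -0.12 and 0.90 and Gstp3 between -3.87 and -2.64 on the 10 arrays. Sult2a2, Sult2a7, Sult3a2 and Sult6b1 did not pass the filter.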
